A study of Mus musculus with 2 samples.

Results

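Syndecans and glypicans are the main families of cell surface proteoglycans that carry heparan sulfate chains. Probes whose gene name in the scanner files is 1 of the 4 syndecan genes (Sdc1, Sdc2, Sdc3, Sdc4) or 1 of the 6 glypican genes (Gpc1 to Gpc6) were taken, every probe of each gene. All 10 genes had a probe, 17 probes in all, 8 for syndecans and 9 for glypicans, among 41084 probes with usable spots on both arrays and 19698 genes that could be named. Each of the 17 was a single spot on each array.

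NIH3T3 is an established fibroblast line from mouse embryos. The arrays compared NIH3T3 cells carrying plasmid pcDNA3.1 with MARVELD1 and the same line carrying pcDNA3.1 alone, to see how MARVELD1 alters the expression profile. MARVELD1 is a membrane protein with a MARVEL domain. Stable cells were selected with G418, and the labels do not say whether a line is 1 clone or a pool, or from which species the inserted MARVELD1 came. There was 1 array per group, so values have no replicate error, nothing is tested, and the number of arrays limits the precision throughout.

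Syndecans span the membrane with a short cytoplasmic tail that binds adaptor proteins, while glypicans are held on the outer face of the membrane by a glycosylphosphatidylinositol anchor. Through their heparan sulfate chains both families bind growth factors, morphogens and matrix proteins and present them to signalling receptors. In fibroblasts, syndecan-4 acts with integrins at focal adhesions, and glypican-3 is known as a regulator of Hedgehog signalling.

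None of the syndecan or glypican probes differed by 2-fold or more between the arrays. Both arrays read 10 of the 17 probes well above background, 2 were so on the array labelled MARVELD1 alone, and 5 on neither. Among the 12 that were well above background on at least 1 array, 0 were 2-fold or more higher and 0 lower, beside 5.88% and 4.62% of all 29535 probes that met the same condition. That is 1737 probes higher and 1365 lower, a split that turned to 1319 and 1694 when arrays were scaled to their medians. Among probes measured on both arrays, the largest higher readings were 1.55-fold for 1 probe of Sdc3 and 1.53-fold for 1 probe of Gpc5. The largest lower readings were 1.37-fold for Gpc1 and 1.34-fold for 1 probe of Sdc2. Gpc4 was 1.76-fold higher by 1 probe, a nominal bound near the detection limit that leaves out spot error. In 2 of the 3 genes with more than 1 probe measured on both arrays, Sdc3 and Sdc4, the probes gave opposite signs.

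The probes that carry these readings are 60 bases long, and the last 30 bases of some are shown so that the pairs that disagree within a gene can be told apart. They are written as the files print them, 5′ to 3′, with mm9 coordinates of the shown bases and the strand read from the order of the files' coordinates. Capitals mark AATAAA and ATTAAA, hexamers that serve as polyadenylation signals in mammalian transcripts.
Gpc1 A_51_P276943, chr1:94756741-94756770, plus strand: gtccttgtatgaATTAAAggctggggacct
Sdc2 A_51_P292403, chr15:32962324-32962353, plus strand: gagcactgaacttttcaaAATAAAgctttg
Sdc2 A_51_P157255, chr15:32964234-32964263, plus strand: attacagctgtaattcaccatgttaaaagg
Sdc3 A_52_P485142, chr4:130378930-130378959, plus strand: ttctttggtcccattccctccagcccgggg
Sdc3 A_52_P282741, chr4:130382045-130382074, plus strand: ggaggagagggtcagatggataaagataaa
Sdc4 A_52_P93467, chr2:164251211-164251240, minus strand: accagtttagatcctgtagtaaacatgtcc
Sdc4 A_51_P323248, chr2:164250116-164250145, minus strand: acaaaatgctcagtcaccatcccccgggca

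Of the 17 whole probes, 1 held AATAAA and 1 held ATTAAA on the printed strand, and 1 held AATAAA on the other strand. Among all 41174 probes of 60 bases, 4.78% held AATAAA and 2.90% held ATTAAA on the printed strand, and 4.25% and 2.97% on the other. The 2 probes with a hexamer on the printed strand were those of Gpc1 and of Sdc2 that read lower on the array labelled MARVELD1. A match is a string of letters in the probe and not a site. The G and C content of the whole probes was 60% and 38.3% for the Sdc3 pair printed above, and 35% and 55% for the Sdc4 pair. The part of the transcript each probe reads was not annotated, since no mm9 gene models were used here.

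Intensities are in arbitrary units as the scanner program processed them, and the ± beside each is the error that this program assigns to the spot, not a replicate error. Differences are log2 values after each array was scaled to its own 75th percentile, always array labelled MARVELD1 minus empty vector array. The empty vector array had a 75th percentile of 768.1 and the other 703.3, and 68.7% and 69.0% of spots were well above background. The scaling leaves the median of the 26799 probes measured on both arrays at 0.15, and at 0.04 when arrays are scaled to their medians, so 0 is not the centre of the data. Bright probes, over 11 on the log2 intensity scale, had a median difference of 0.28, middling ones, from 8 to 11, 0.07, and dim ones 0.14. Marveld1 itself did not read higher on the array labelled MARVELD1 (probe A_52_P541175, 8725 with the empty vector and 6293 on the array labelled MARVELD1; probe A_51_P158814, 184.4 and 126.4), so all directions rest on the label. Whether either probe reads the plasmid's insert is not known.

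**Figure D1:**
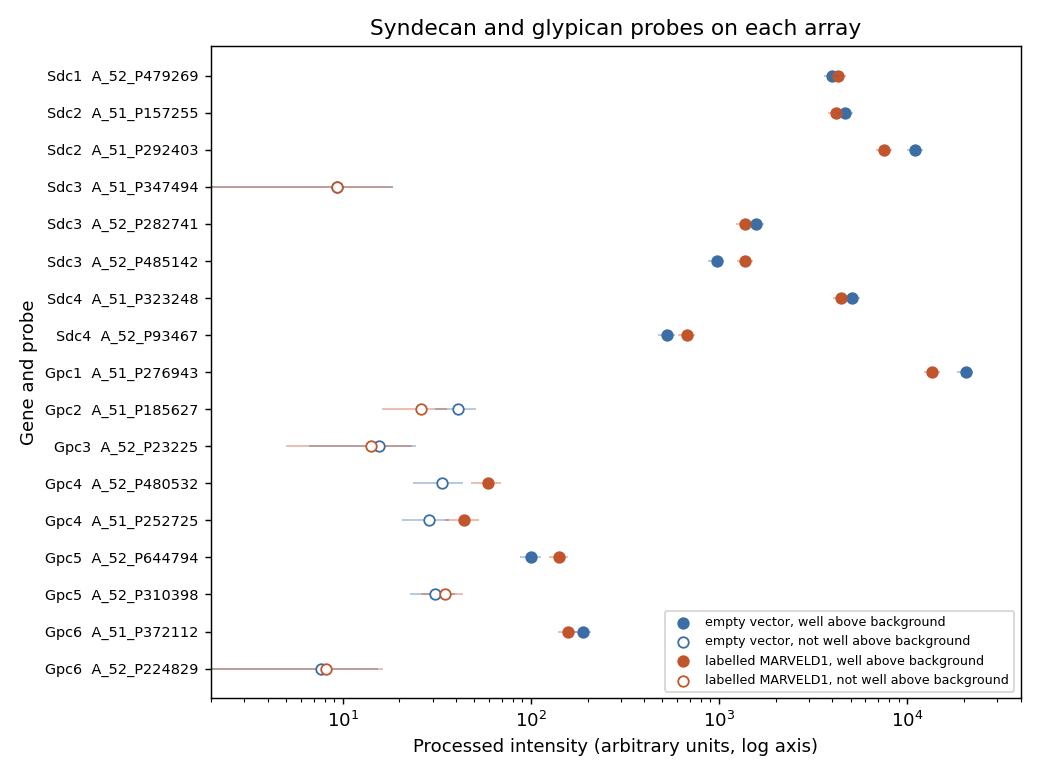
Processed intensity (arbitrary units, log axis) of the 17 syndecan and glypican probes with the empty vector and the array labelled MARVELD1, with the scanner program's error as horizontal bars. Filled points are well above background and open points are not; Gpc1, at 20435 and 13619, is the brightest reading on each array, and Gpc2 and Gpc3 have open points alone.

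Syndecan-1, the member best known from epithelia and plasma cells, was measured in these fibroblasts and differed little. Its only probe, A_52_P479269 (mm9 chromosome 12, 8799383 to 8799442), read 3994 ± 399 with the empty vector and 4311 ± 431 on the array labelled MARVELD1. The 2 readings overlap within the program's error. The log2 difference was 0.24 with an error of 0.20, which is 0.09 above the median of all probes. After loess, which compares a probe with those of like brightness, it was 0.01.

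Syndecan-2, the syndecan associated with mesenchymal cells, was lower by 1 probe and nearly even by the other. Probe A_51_P292403 (chromosome 15, 32962294 to 32962353), the one with the AATAAA hexamer, read 11021 ± 1102 with the empty vector and 7537 ± 754 on the array labelled MARVELD1. That is a log2 difference of -0.42 with an error of 0.20. Probe A_51_P157255, which lies 1910 bases downstream in the genome, read 4692 ± 469 and 4198 ± 420, a log2 difference of -0.03 with the same error. Both probes were below the median of all probes, by -0.57 and -0.18, and their differences after loess were -0.70 and -0.26. Repeated spots of bright probes had an SD of 0.17 for a difference between single spots, so the first difference was larger than spot noise and the second was not.

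Syndecan-3, which is best known from the nervous system, gave opposite signs by different probes. Probe A_52_P485142 (chromosome 4, 130378900 to 130378959) read 970.4 ± 97.4 with the empty vector and 1378 ± 138 on the array labelled MARVELD1, a log2 difference of 0.63 with an error of 0.20. This was the largest difference among the 10 member probes measured on both arrays. Probe A_52_P282741, 3115 bases downstream, read 1580 ± 158 and 1372 ± 138, a log2 difference of -0.08. Repeated spots of middling probes had an SD of 0.27 for a difference, which the first probe exceeded and the second did not. The third probe, A_51_P347494, has no position in the files and read 9.28 with the empty vector and 9.29 on the array labelled MARVELD1, not well above background on either. No direction for Sdc3 can be read from probes that differ by 0.71 among themselves.

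Syndecan-4, the focal adhesion member, likewise gave opposite signs. Probe A_52_P93467 (chromosome 2, 164251211 to 164251270) read 529.3 ± 53.6 with the empty vector and 675.3 ± 68.1 on the array labelled MARVELD1, a log2 difference of 0.48 with an error of 0.21. Probe A_51_P323248, 1095 bases downstream on the minus strand, read 5106 ± 511 and 4472 ± 447, a log2 difference of -0.06 with an error of 0.20. After loess these became 0.43 and -0.30. Here as for Sdc3 the upstream probe read higher and the downstream probe slightly lower, whereas for Sdc2 the upstream probe was the lower of the pair.

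The range between probes of a gene was set beside that of all genes on these arrays. Over the 5486 genes with more than 1 probe measured on both arrays, the range of log2 differences within a gene had a median of 0.49 and quartiles of 0.23 and 0.88. The range was 0.39 for Sdc2, 0.54 for Sdc4 and 0.71 for Sdc3, and 58.9%, 46.0% and 34.2% of genes had a range as wide or wider. Those genes were not matched to the syndecans. They include genes with more than 2 probes and with dim, noisier probes, whereas each syndecan range rests on 2 middling or bright probes. Over the 7 syndecan probes measured on both arrays, the median log2 difference was -0.03.

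Glypican-1, the glypican found in many adult cell types, had the lowest log2 difference of the members measured on both arrays. Its single probe, A_51_P276943 (chromosome 1, 94756711 to 94756770), read 20435 ± 2044 with the empty vector and 13619 ± 1362 on the array labelled MARVELD1. The intervals given by the program's errors do not overlap. The log2 difference was -0.46 with an error of 0.20, beside the spot SD of 0.17, and it lay -0.60 from the median of all probes. Relative to probes of like brightness, after loess, it was -0.76. Of all probes measured on both arrays, 13.7% were as low or lower, and no second probe bears on this reading.

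Glypican-4 was near the limit of detection and was brighter on the array labelled MARVELD1 by both of its probes. Probe A_52_P480532 (chromosome X, 49404329 to 49404388) read 33.6 ± 9.83 with the empty vector, not well above background, and 58.8 ± 10.8 on the other, well above it. Probe A_51_P252725, 2059 bases upstream on the minus strand, read 28.7 ± 8.11 and 43.8 ± 8.91 with the same flags. The lowest intensity of a well-measured probe was 36.5 with the empty vector and 36.0 on the array labelled MARVELD1. Set against that intensity, Gpc4 was 1.76-fold higher by the first probe and 1.31-fold by the second. These bounds are nominal. They leave out the spot errors, and Gpc2 read 41.0 with the empty vector without being well above background. Repeated spots of dim probes had an SD of 0.59 for a log2 difference, and the bounds were 0.81 and 0.39. Under the 4 other scalings that hold these probes the bounds were 0.38 to 0.71 and 0.16 to 0.28.

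Glypican-5 and glypican-6, which are encoded by neighbouring genes on chromosome 14, were each measured by 1 of 2 probes. The Gpc5 probe A_52_P644794 (115816568 to 115816626) read 100.3 ± 12.8 with the empty vector and 140.7 ± 16.4 on the array labelled MARVELD1, a log2 difference of 0.62 with an error of 0.25. That difference was close to the spot SD of 0.59 at this brightness. Its other probe, A_52_P310398, lies 1107218 bases away and read 31.1 and 34.8, not well above background on either array. The 2 Gpc5 probes are annotated to different transcript records, and the RefSeq record belongs to the probe that was not measured. The Gpc6 probe A_51_P372112 (118375138 to 118375197) gave readings of 157.0 ± 17.8 (array labelled MARVELD1) and 189.1 ± 20.5 (empty vector), a log2 difference of -0.14 with an error of 0.23. Its second probe, A_52_P224829, read 7.68 and 8.19, not well above background. The chromosomal neighbours thus differed in sign by readings that were both about as large as spot noise or smaller.

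Glypican-2, known as cerebroglycan of the developing nervous system, and glypican-3, an X-linked regulator of growth, were not well above background on either array. The Gpc2 probe A_51_P185627 (chromosome 5, 138715328 to 138715387) read 41.0 ± 9.90 with the empty vector and 26.0 ± 9.88 on the array labelled MARVELD1. The Gpc3 probe A_52_P23225 (chromosome X, 49625740 to 49625799) read 15.6 ± 9.00 and 14.2 ± 9.15. Since neither array measured these genes, no fold is given.

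**Figure D2:**
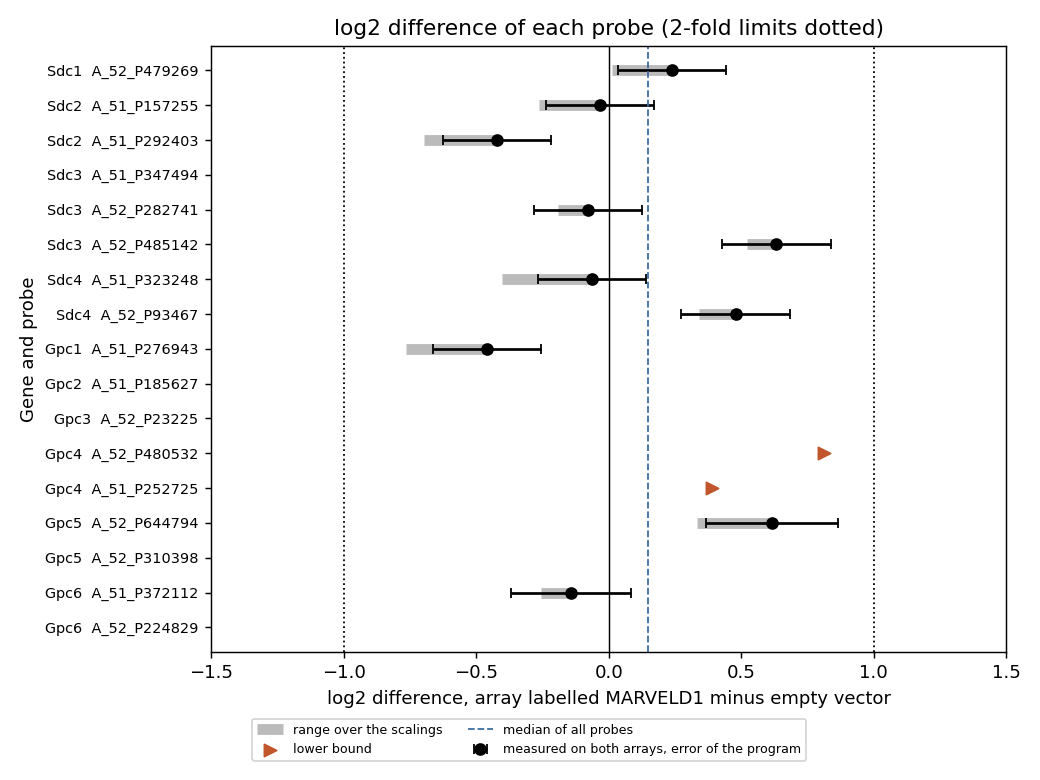
log2 difference (array labelled MARVELD1 minus empty vector) of each probe, with the program's error as bars, grey bars for the range over 6 scalings of the 10 probes measured on both arrays, and triangles for the nominal lower bounds of Gpc4 after scaling to the 75th percentile. All points lie between the dotted 2-fold limits, from -0.46 for Gpc1 to the Gpc4 bound of 0.81; probes without a point were not well above background on either array.

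Among the 10 probes measured on both arrays, 4 were higher and 6 lower, with a median log2 difference of -0.05. Over all probes measured on both arrays the median was 0.15, with quartiles of -0.19 and 0.45, and 62.5% were above 0. The sign of all 10 probes was the same under 6 scalings. At a limit of 1.5-fold, 3 of the 12 member probes were higher (Sdc3, Gpc4 and Gpc5, 1 probe each) and 0 lower, beside 18.6% and 11.2% of all probes. Those counts hold for this scaling alone. After loess, Gpc1 (-0.76) and the lower Sdc2 probe (-0.70) were past 1.5-fold lower, and Sdc3 (0.55) and Gpc5 (0.48) fell short of it. The members that were lower by more than spot noise, Gpc1 and 1 probe of Sdc2, were also the brightest readings on both arrays among the 17, but brightness of different probes does not rank the transcripts.

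**Figure D3:**
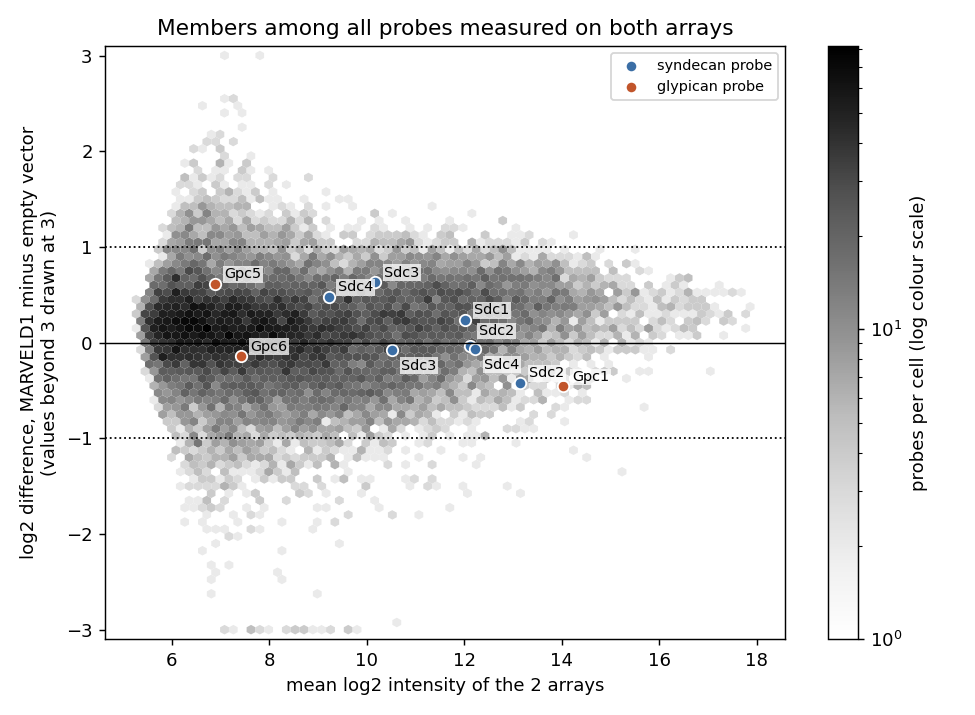
log2 difference against mean log2 intensity for all 26799 probes measured on both arrays (grey, log colour scale), with the 7 syndecan and 3 glypican probes named. Gpc1 and the lower Sdc2 probe lie at the bright end below 0, where probes over 11 had a median of 0.28, and all 10 lie inside the dotted 2-fold lines.

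Most enzymes that build and edit heparan sulfate differed by less than 2-fold, as did most detected genes. Of 36 genes listed, 33 had a probe and 30 were detected, with 3 at least 2-fold higher and 1 lower, beside 5.39% and 3.53% of 16532 detected genes. The median log2 difference of the 28 measured on both arrays was 0.10, beside 0.18 for all genes. Hpse, encoding heparanase, which cuts heparan sulfate chains, was 2.65-fold higher, at 153.2 against 63.0, and passed 2-fold under 5 of 6 scalings. Extl2, an exostosin-like glycosyltransferase, was 2.12-fold higher, and Ndst1, which starts sulfation by replacing acetyl with sulfate groups, was 2.10-fold higher. Both passed 2-fold under 1 of 6 scalings, and the other probes of Ndst1 gave -0.01, -0.25 and 0.48. Hs3st1, a 3-O-sulfotransferase that completes the antithrombin binding site, was 2.93-fold lower by a nominal bound. It read 115.1 against a reading that was not well above background, and the bound passed 2-fold under 4 of 5 scalings. B4galt7, which adds the first galactose of the linker to the core protein, was 1.69-fold lower.

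Chondroitin sulfate chains, which syndecans may also carry, are made by a separate set of enzymes. Of 16 such genes 15 were detected, and the median log2 difference was 0.04, beside 0.18 for all genes. By the brightest probe 1 gene was past 2-fold higher and 1 past 2-fold lower, beside 5.39% and 3.53% of all detected genes. Dse, encoding the epimerase that converts chondroitin to dermatan sulfate, read 752.5 with the empty vector and 64.6 on the array labelled MARVELD1, 10.7-fold lower, and it was past 2-fold under all 6 scalings. That reading comes from 1 probe. Of all list genes past 2-fold by the brightest probe, only Ndst1 and Ccl7 had a value from another probe. Chsy1, a chondroitin synthase, was 2.04-fold higher but past 2-fold under 1 of 6 scalings. Csgalnact1, which starts the chain, was 1.90-fold lower, and Chst15, a sulfotransferase, had a log2 difference of 0.30. Chst12, another sulfotransferase, named after its values were seen, was at -0.85, while its dimmer probe, measured only on the array labelled MARVELD1, gave a bound of 3.15. Among 16 other proteoglycans and co-receptors, 15 were detected, with a median of 0.02. By the brightest probe 1 was higher and 0 lower past 2-fold, beside the same 5.39% and 3.53%. The higher gene was Bcan, the brain proteoglycan brevican, 5.84-fold by a nominal bound. Its probe was not well above background with the empty vector. Nrp1, a co-receptor, was 1.73-fold higher, whereas the matrix proteoglycan genes Bgn and Vcan had log2 differences of -0.54 and -0.49. Other probes of these genes gave 3.44 and 0.33 for Nrp1 and a bound of -0.21 and a difference of 0.18 for Vcan. Cspg4 and Col18a1, named after their values were seen, were at -0.37 and 0.55 by their brightest probes. Dimmer probes gave differences or bounds of -1.75 and 0.44 for Cspg4 and 1.04 for Col18a1.

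Genes of proteins that act on the syndecan tail or process the glypican core mostly differed by less than 2-fold, as did most detected genes. Of 20 genes 18 were detected. By the brightest probe 0 were 2-fold or more higher and 1 lower, beside 5.39% and 3.53% of 16532 detected genes. The median log2 difference was 0.03, beside 0.18 for all genes. The lower gene was Actn1, encoding alpha-actinin, which binds the syndecan-4 tail. It read 2205 with the empty vector and 854.4 on the array labelled MARVELD1, a log2 difference of -1.24. Prkca, a kinase that the syndecan-4 tail activates, had a log2 difference of -0.52, Src, a kinase that phosphorylates adhesion proteins, 0.82 and the proprotein convertase gene Pcsk7 0.72. Sdcbp, encoding syntenin, the adaptor of syndecan tails, and Cttn are named here after their values were seen. The probes of Sdcbp gave -0.46 and -0.48. Cttn was at -0.24 by its brightest probe, while a dimmer probe gave a difference or bound of -1.28, past 2-fold.

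Enzymes that shed ectodomains were listed with Timp3, which inhibits several of them. Of 14 genes 13 were detected, and by the brightest probe 1 was higher and 2 lower past 2-fold. Of all 16532 detected genes 5.39% were higher and 3.53% lower. Timp3, the inhibitor, is 1 of the 2 lower genes. The median log2 difference was -0.29, beside 0.18 for all genes. The lower count was 3 under each of the other 5 scalings, where Mmp2, gelatinase A, passed 2-fold beside -0.95 here. Timp3 read 2147 with the empty vector and 79.7 on the array labelled MARVELD1, a log2 difference of -4.62. Adam10, a sheddase of many surface proteins, read 170.0 and 59.4, a log2 difference of -1.39 that passed 2-fold under 5 of 6 scalings. Under the scaling where Adam10 fell short, at -0.87, another gene made up the lower count of 3. Mmp3, stromelysin-1, read 71.3 and 458.7, a log2 difference of 2.81, and Plg, plasminogen, had a bound of 0.82. Mmp14, named after its values were seen, was at -0.53, while its dimmer probe gave a difference or bound of -1.17. Among 24 heparin-binding growth factors and chemokines, 19 were detected, with a median of 0.02. By the brightest probe 1 was higher and 3 lower past 2-fold, beside the same 5.39% and 3.53%. Hbegf, an EGF receptor ligand that binds heparan sulfate, was at 1.89, and Cxcl12 at 0.88. Ccl7, a chemokine, Fgf10 and the neurite growth factor Ptn were at -1.57, -1.44 and -1.40, the last past 2-fold under 5 of 6 scalings. Mdk, named after its values were seen, was at -0.56, while its dimmer probe gave a difference or bound of 1.05.

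**Figure D4:**
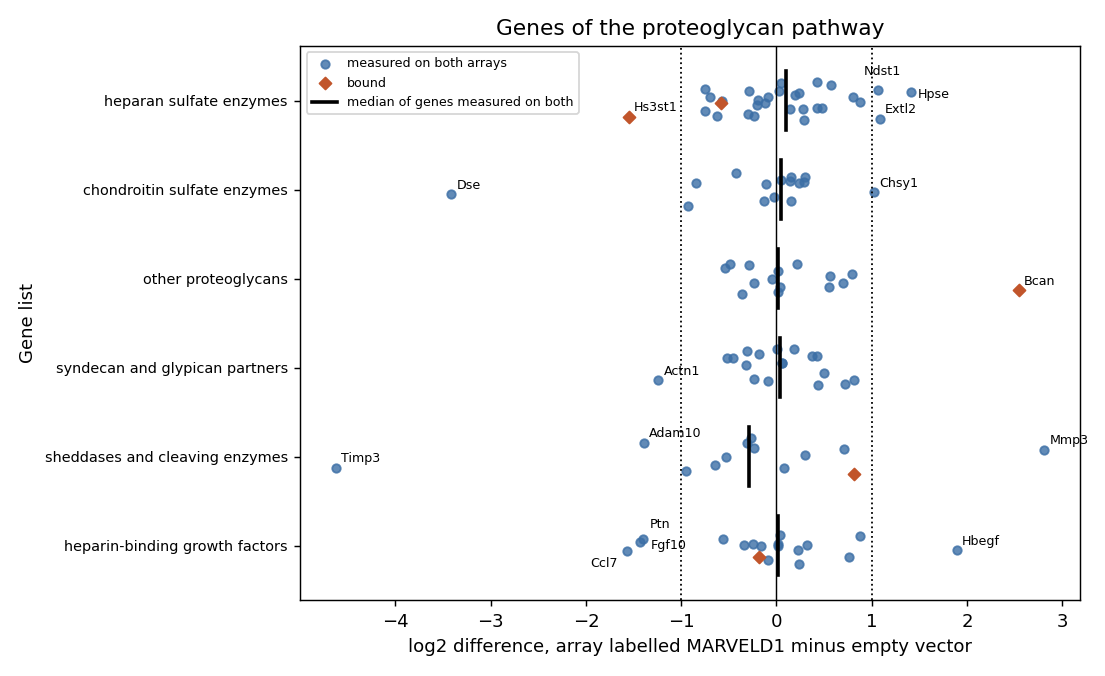
log2 difference (array labelled MARVELD1 minus empty vector) of each detected gene in the 6 lists of the proteoglycan pathway, by its brightest probe, with bounds as diamonds and the median of genes measured on both arrays as black bars. Most genes lie between the dotted 2-fold limits, and the named genes outside them include Dse at -3.42, Timp3 at -4.62 and Mmp3 at 2.81.

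Fibroblast markers were the brightest list on both arrays, though most of them read lower on the array labelled MARVELD1. Pdgfrb read 3977 there against 18671 with the empty vector, Col3a1 20080 against 64530, Fbn1 1911 against 5204 and Fn1 4086 against 9717. Col1a1, Col1a2, Thy1, Pdgfra and Prrx1 also read lower, while Vim, S100a4 and Twist1 read higher. All 12 fibroblast markers examined were well above background on both arrays, with a summed intensity of 737150 with the empty vector and 576000 on the array labelled MARVELD1. Their median was 26648 with the empty vector and 12083 on the array labelled MARVELD1. Of the 8 epithelial markers 4 were well above background with the empty vector and 5 on the array labelled MARVELD1, and Epcam and Cdh1 on neither. Their summed intensity was 3931 and 1282 and their median 65.2 and 103.9, with Krt14 alone at 3227 and 212.4. The 6 endothelial markers summed to 1970 and 1508 with medians of 135.5 and 162.4, and of these Cdh5 read 1289 and 708.5. The remaining lists gave summed intensities in the same order of arrays, 2005 and 2248 for haematopoietic markers (6), 4526 and 3828 for neural markers (6) and 984.5 and 1311 for skeletal muscle markers (6). The endothelial, haematopoietic and neural lists each had 5 of 6 markers well above background with the empty vector. On the array labelled MARVELD1 each had 6 of 6, and skeletal muscle had 3 of 6 on both. The count above background thus hardly sets the fibroblast list apart from these, though its readings were far brighter. The part of any other cell type in the member readings was not tested. In bulk RNA, fewer cells with a transcript and less of it per cell cannot be told apart.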

How the data were processed

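The authors deposited scanner output of Agilent Feature Extraction 9.5.3.1 for 2 single-colour arrays, 1 per group, holding a fluorescence intensity per spot, with probe coordinates on mm9, per the file headers. The program had subtracted background, detrended the array and replaced very low readings by surrogates, per the file headers, and it gave an error for each spot. A further deposited table of normalized intensity was used as an alternative, and how the authors chose its scale is not given in the sources used here.

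Control spots and spots the program called outliers were left out (116 and 223 of 43379 spots). The log2 intensity minus the array's 75th percentile was taken, and repeated spots were averaged. A probe was kept if well above background on at least 1 array. Where only 1 array passed, a bound is given against the higher of the dim reading and the lowest well-measured intensity. Such a bound is nominal, since it leaves out spot error and some probes above that intensity were not well above background. Gene lists used each gene's brightest probe, named through a RefSeq table of GRCm38.p6. From each list the text names the 2 highest, the 2 lowest and any other gene past 2-fold. Genes with only a dimmer probe past 2-fold are named too, chosen after their values were seen. So was Sdcbp, which had no probe past 2-fold. A difference past 2-fold was counted, with no test. R 4.3.3 and limma 3.58.1 made the normexp, quantile and loess alternatives, and the others were scaling to the median, other filters, other thresholds and the mean of all probes. The counting code was run on simulated data with changes well past 2-fold and the same noise at every brightness. That run checks the code, and not calls near 2-fold or near background. The members and lists were chosen with earlier results of these data known.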

Additional observations from a re-analysis of the deposited data

How the results depend on the processing

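With 1 array per group, spot noise and signal over background limit the values, and 7 of the 17 member probes were too near background on at least 1 array to give a difference. No paired analysis was possible because each group has 1 array. No member probe was past 2-fold, 0 higher and 0 lower, under any other scaling, background correction or filter, or in the authors' table, and 0 were past 3-fold. At 1.5-fold 3 were higher and 0 lower with the scaling behind the differences given above, and this split changed with other scalings. After loess, Gpc1 (-0.76) and the lower Sdc2 probe (-0.70) were past 1.5-fold lower. Both were also past it by quantile normalization (-0.72 and -0.67) and normexp (-0.77 and -0.64). Sdc3 (0.55) and Gpc5 (0.48) fell short after loess, while the Gpc4 bound (0.60) did not. By quantile normalization Sdc3 (0.61) stayed past 1.5-fold higher. The median of the member probes was -0.16 with scaling to the array median, -0.18 by quantile normalization, -0.21 by loess, -0.13 by normexp and -0.16 in the authors' table, but 0.13 without the filter, where probes near background enter.

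Counts in the pathway lists moved more, and the cause was not tested beyond the construction of each setting. Heparan sulfate enzymes had 1 gene higher with median scaling, quantile normalization, loess and the authors' table, and 0 with normexp. Their lower count was 2 after loess, and 0 with normexp, the authors' table and the filter on both arrays. Chondroitin sulfate enzymes had 0 higher under those 5 settings of scale, and 2 lower with median scaling, loess and the authors' table. Other proteoglycans had 2 higher with normexp and 0 higher with the authors' table and the filter on both arrays. Sheddases had 3 lower under the other 5 scalings. Without the filter 1 partner gene and 2 growth factors were higher. With the mean of all probes 2 chondroitin enzymes and 2 other proteoglycans were higher.

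At 1.5-fold, heparan sulfate enzymes had 5 higher and 5 lower, chondroitin enzymes 3 lower, other proteoglycans 3 higher, partners 2 higher, sheddases 3 higher and 4 lower, and growth factors 3 higher. At 3-fold, heparan sulfate enzymes had 0 higher and 0 lower, chondroitin enzymes 0 higher, partners 0 lower, sheddases 1 lower and growth factors 0 lower. Over all probes 18.6% were higher and 11.2% lower at 1.5-fold. At 3-fold 433 of 29535 probes were higher and 484 lower. The share over all genes was not counted at these limits, so the list counts are not read as differences of the lists.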
